A study of Homo sapiens with 10 samples.

Results

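A run of neighbouring genes on chromosome 5, from MOCS2 to FCHO2, was followed across 5 lines of the human colorectal carcinoma line HCT116. Members were all genes in the array's probe annotation that lie from MOCS2 to FCHO2 in RefSeq start order (GRCh38.p14), with PLK2, CCNB1 and OCLN left out. A member also had to reach the median of all probe sets of an array on 2 or more of the 10 arrays. Of 65 named genes in the run, 62 remained without these 3, and 42 passed the filter, out of 10797 genes kept in the whole series and 458 on chromosome 5. The run was chosen because its values were low in the line ORC1B14 on these same arrays. The members' level in ORC1B14 is therefore a description, and limma calls of members there are counted but support nothing. Tests are read only for members in the other mutant lines and, in ORC1B14, for genes outside the run.

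The study hybridised RNA from untreated cells of 5 HCT116 lines to Affymetrix arrays, with 2 arrays a line. The groups are WT, the ORC1 mutants ORC1B14 and ORC1BP32, and the ORC2 mutants ORC2B2 and ORC2BP8, all grown at 37 °C in 5% CO2. ORC1 and ORC2 encode subunits of the origin recognition complex, which marks the start sites of DNA replication. The labels state neither the kind of mutation nor how a line was derived, and they call the arrays biological replicates without saying whether cultures were grown separately. A p-value here therefore speaks to array-to-array spread, part of which could be technical. The array values were read as log2, so a difference of -1 log2 unit corresponds to a level of 50% on the linear scale. Each is the brightest probe set of a gene.

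Genes that lie side by side usually have their own promoters and no common function. Some adjacent pairs start back to back and are transcribed in opposite directions from a short stretch of DNA between their start sites. The members here serve many roles. CDK7 is the kinase of the CDK-activating complex and of the transcription factor TFIIH, RAD17 loads the checkpoint clamp onto damaged DNA, and ERBIN is a scaffold protein that binds the ERBB2 receptor. GPBP1 is a GC-rich promoter binding protein, ELOVL7 elongates long-chain fatty acids, and KGD4 links the subunits of the mitochondrial 2-oxoglutarate dehydrogenase complex. MTREX is the RNA helicase that feeds RNA to the nuclear exosome, DHX29 is a helicase of translation initiation, and CENPK and CENPH are inner kinetochore proteins.

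RefSeq promoter windows (GRCh38.p14, 250 bases before and 50 after a start) were found for 36 of the 42 members. The members were not searched for all back-to-back pairs, and 4 were picked for display. In these 4 adjacent pairs both genes are members and are transcribed away from each other. Their shared upstream DNA is shown because a pair has 1 such region but 2 separately measured RNAs. The plus strand is given 5′ to 3′, and capitals mark CCAAT and GGGCGG on either strand, the letters bound by the factors NF-Y and SP1. The sequences are chr5:55307739-55307988 for DHX29 and MTREX, whose starts lie 294 bases apart so that the 250 bases before MTREX are printed, chr5:64768692-64768917 for SREK1IP1 and CWC27, chr5:65563169-65563295 for CENPK and PPWD1, and chr5:72320241-72320372 for MRPS27 and PTCD2.
DHX29 and MTREX: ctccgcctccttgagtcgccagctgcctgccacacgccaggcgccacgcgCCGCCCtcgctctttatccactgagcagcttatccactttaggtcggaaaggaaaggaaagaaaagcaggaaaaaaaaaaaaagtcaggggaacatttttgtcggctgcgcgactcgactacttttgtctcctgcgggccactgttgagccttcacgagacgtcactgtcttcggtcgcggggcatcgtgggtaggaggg
SREK1IP1 and CWC27: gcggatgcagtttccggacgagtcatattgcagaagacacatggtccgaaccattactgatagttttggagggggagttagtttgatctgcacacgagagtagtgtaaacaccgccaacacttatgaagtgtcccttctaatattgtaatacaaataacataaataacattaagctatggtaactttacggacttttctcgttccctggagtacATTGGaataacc
CENPK and PPWD1: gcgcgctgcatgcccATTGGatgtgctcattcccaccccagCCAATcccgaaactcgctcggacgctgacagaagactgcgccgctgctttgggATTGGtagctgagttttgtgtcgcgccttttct
MRPS27 and PTCD2: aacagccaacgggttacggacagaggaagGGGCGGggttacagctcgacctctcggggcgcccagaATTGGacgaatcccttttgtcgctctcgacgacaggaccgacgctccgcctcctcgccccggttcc
The CENPK and PPWD1 region holds 3 matches to CCAAT in 127 bases, and the SREK1IP1 and CWC27 region holds 1 in 226. The DHX29 and MTREX region holds 1 match to GGGCGG, and the MRPS27 and PTCD2 region holds 1 match to each motif. Over all member windows, CCAAT was present in 36% (18 of 50) and GGGCGG in 62% (31 of 50). In the 11626 windows of all genes tested the shares were 34.36% and 64.87%. The third motif searched, TATAAA, was in 10 of the 50 windows (20%), which belong to 7 members, against 6.477% of all windows. These are matches of letters only, and windows of a back-to-back pair overlap.

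Medians over all probe sets lay between 3.87 and 3.96 on the 10 arrays. Of the listed markers of colorectal epithelium 9 of 10 genes were named and 8 were kept. EPCAM lay between 9.75 and 10.46, KRT18 between 10.18 and 11.88 and KRT19 between 9.27 and 10.57. A second, dimmer KRT18 probe set lay between 6.80 and 7.69. KRT8 lay between 5.82 and 6.56, CDX2 between 5.31 and 5.74 and CDX1 between 4.54 and 5.02. KRT20 (3.98 to 6.58) and VIL1 (3.93 to 4.44) reached down near the array medians. LGR5 (2.51 to 3.17) stayed below the array medians on every array. Of 7 fibroblast markers DCN and LUM were named and of 7 blood markers CD14 and LYZ, and all 4 genes stayed below the array medians on every array. ORC1B14 replicate 1 stood apart from replicate 2. Its difference from the other lines had an SD over all genes of 0.39, against 0.25 for replicate 2, and it held the lowest value of the 9 arrays compared for 20.1% of all genes against 6.03%. Medians and counts of the members are therefore given also without it, that is, with replicate 2 alone against the mean of the other 4 lines. The array annotation named 0 of the 6 ORC genes, so the mutated genes were not analysed here.

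In ORC1B14 the members stood well below the other lines. The median member stood at -0.82 log2 units against the mean of the other 4 lines, a level of 56.8%, where the median over all genes tested was 0.02. Members ranged from -1.36 (CENPK) to 0.20 (MCCC2), and 39 of 42 lay below 0. At or below -1 were 16 members (0.417% of all genes), and at or below -0.5 were 29 (3.45% of all genes). Without ORC1B14 replicate 1 the median was -0.52, only ERBIN (1 member) lay at or below -1 (0.278% of all genes), 22 lay at or below -0.5 (2.79%) and 36 lay below 0. Both ORC1B14 arrays lay below all 8 arrays of the other lines for 26 members, against 2.19% of all genes. With only replicate 2 of ORC1B14 set against the 8 arrays this count was 27 (6.03% of all genes), and with only replicate 1 it was 36 (20.1%). Nothing is read from these counts about chance, since this contrast chose the run. The arrays read the pooled RNA of a culture, so fewer cells that express a gene and less RNA per cell cannot be told apart. The DNA of the lines was not analysed here.

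The 6 genes that mark the run show this pattern. They are the same 6 members that limma called lower in ORC1B14 than in WT, so their values are a description only. CDK7 stood at 8.39 and 8.40 in WT, 6.89 and 7.53 in ORC1B14, 8.54 and 8.42 in ORC1BP32, 8.23 and 8.23 in ORC2B2 and 8.26 and 8.44 in ORC2BP8 (probe set 16985637). Its difference in ORC1B14 was -1.15 (SE 0.17), and the 8 other arrays spanned only 8.23 to 8.54. RAD17 stood at 8.55 and 8.78 in WT, 7.13 and 7.69 in ORC1B14, 8.42 and 8.51 in ORC1BP32, 8.73 and 8.58 in ORC2B2 and 8.41 and 8.31 in ORC2BP8 (probe set 16985658). Its difference was -1.13 (SE 0.17), and no ORC1B14 array overlapped the range of the others. ERBIN stood at 9.83 and 9.47 in WT, 8.20 and 8.59 in ORC1B14, 9.64 and 9.47 in ORC1BP32, 9.76 and 9.41 in ORC2B2 and 9.72 and 9.58 in ORC2BP8 (probe set 16985353). It lay at -1.21 (SE 0.16), and its 2 ORC1B14 arrays were the closest to each other among these genes except KGD4. GPBP1 stood at 8.99 and 8.96 in WT, 7.40 and 8.11 in ORC1B14, 8.70 and 8.91 in ORC1BP32, 8.67 and 8.81 in ORC2B2 and 8.79 and 8.79 in ORC2BP8 (probe set 16984992). Its difference was -1.07 (SE 0.18). ELOVL7 stood at 7.68 and 7.67 in WT, 6.01 and 6.47 in ORC1B14, 7.002 and 7.39 in ORC1BP32, 7.12 and 7.14 in ORC2B2 and 7.57 and 7.16 in ORC2BP8 (probe set 16996564). It was lowest in ORC1B14 (-1.10, SE 0.18), and WT was higher than every mutant array. KGD4 stood at 5.998 and 6.01 in WT, 4.83 and 5.03 in ORC1B14, 5.77 and 5.83 in ORC1BP32, 5.73 and 5.87 in ORC2B2 and 5.88 and 5.47 in ORC2BP8 (probe set 16985629). Its difference was -0.89 (SE 0.16), the closest to 0 of the 6, and both ORC1B14 arrays lay below the lowest of the others, 5.47.

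**Figure D1:**
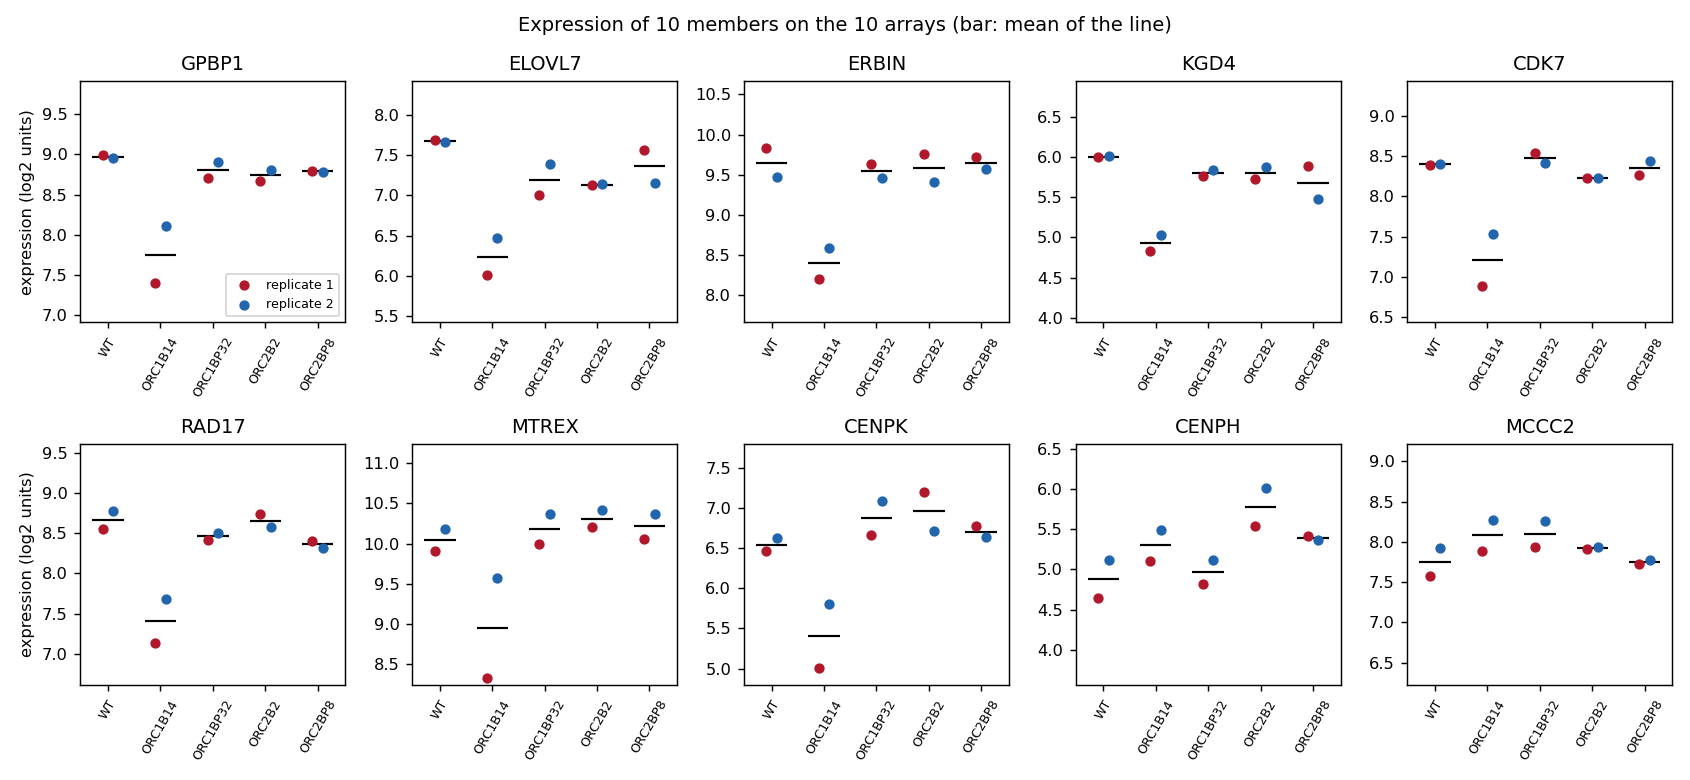
Expression (vertical axes, log2 units) of 10 members in the 5 lines, with replicate 1 in red, replicate 2 in blue and a bar at the mean of the line; every panel spans the same number of log2 units. In 8 of the 10 panels both ORC1B14 arrays lie below the 8 others, while CENPH and MCCC2 overlap the other lines.

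Beside ERBIN, CDK7, RAD17 and ELOVL7, the 12 lowest members were CENPK, PPWD1, DHX29, SREK1, TRAPPC13, MTREX, GPX8 and IPO11. Most of these 8 values depend in size on ORC1B14 replicate 1. CENPK stood at 6.46 and 6.62 in WT, 5.01 and 5.80 in ORC1B14, 6.66 and 7.08 in ORC1BP32, 7.19 and 6.72 in ORC2B2 and 6.77 and 6.64 in ORC2BP8 (probe set 16996722). It had the lowest difference of all members, -1.36 (SE 0.22), and stood at -0.96 without replicate 1 of ORC1B14. PPWD1, a spliceosome-associated peptidyl-prolyl isomerase that starts back to back with CENPK, stood at 6.90 and 7.09 in WT, 5.01 and 6.01 in ORC1B14, 6.25 and 7.14 in ORC1BP32, 6.91 and 6.85 in ORC2B2 and 6.91 and 6.92 in ORC2BP8 (probe set 16985277). Its difference was also -1.36 (SE 0.27), or -0.86 without that array, though ORC1BP32 replicate 1 was lower than the other lines as well. DHX29 stood at 7.95 and 8.23 in WT, 6.22 and 7.63 in ORC1B14, 8.32 and 8.47 in ORC1BP32, 8.30 and 8.31 in ORC2B2 and 8.02 and 8.29 in ORC2BP8 (probe set 16996201). Its difference was -1.31 (SE 0.28) but -0.61 without that array, and replicate 1 minus replicate 2 of ORC1B14 came to -1.41, the widest such gap of any member. MTREX, the other gene of that pair, stood at 9.91 and 10.18 in WT, 8.32 and 9.58 in ORC1B14, 9.99 and 10.37 in ORC1BP32, 10.21 and 10.41 in ORC2B2 and 10.06 and 10.36 in ORC2BP8 (probe set 16984829). It lay at -1.24 (SE 0.26), or -0.61 without that array. SREK1, a splicing regulator of the SR family, lay at -1.29 (SE 0.24), or -0.78 without it, from 5.87 and 6.89 in ORC1B14 against a range of 7.41 to 7.85 on the other arrays. TRAPPC13, a subunit of the TRAPP vesicle tethering complex, lay at -1.27 (SE 0.30), the nuclear import receptor IPO11 at -1.15 (SE 0.26), and GPX8, a glutathione peroxidase of the endoplasmic reticulum, at -1.15 (SE 0.21). None of these 3 overlapped the other lines. Without that array they stood at -0.64, -0.56 and -0.74.

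Grouped by role, 9 of the 9 kept members of RNA processing and translation lay below 0, with a median of -1.03, and 7 of them did not overlap the other lines (2.19% of all genes). Next to the genes above they were DIMT1, an rRNA methyltransferase (-1.03), CWC27, a spliceosomal protein (-0.95), SREK1IP1, which binds SREK1 (-0.59), PTCD2, a mitochondrial RNA-binding protein (-0.65), and MRPS27, a mitochondrial ribosomal protein (-0.03). Among 9 members of mitochondria and metabolism the median was -0.65, and 5 did not overlap. ELOVL7, KGD4 and GPX8 were joined there by NLN, the peptidase neurolysin (-1.01), and PLPP1, a lipid phosphatase (-0.35), while MOCS2 of molybdopterin synthesis stood at -0.55 and MCCC2, a subunit of the leucine-degrading methylcrotonyl-CoA carboxylase, at 0.20. Of 6 members of mitosis, centromere and centriole, CENPK and the microtubule-depolymerising kinesin KIF2A (-0.93) did not overlap, DEPDC1B stood at -0.74, MCIDAS, a regulator of multiciliated cells, at -0.51, MAP1B at -0.23 and CENPH at 0.05. For membrane traffic and nuclear import the 6 kept members had a median of -0.71, from TRAPPC13 to the import receptor TNPO1 (-0.21), with SNX18, a sorting nexin, at -0.71 and ARL15, a small GTPase, at -0.72. MARVELD2, a tight junction protein also called tricellulin, stood at -0.81 without overlap. CCNO, a cyclin of multiciliated cells, lay at -0.32, the cytokine receptor gene IL31RA at -0.29 and the methyltransferase gene SETD9 at -0.10, and all 3 overlapped the other lines. Outside these roles SMIM15 stood at -1.03, LRRC70 at -0.93 and CCDC125 at -0.82, all without overlap. Without ORC1B14 replicate 1 the role medians were -0.61 for RNA processing and translation, -0.38 for mitochondria and metabolism, -0.33 for mitosis, centromere and centriole, and -0.42 for membrane traffic and nuclear import. In RefSeq the member pairs IPO11 and LRRC70, CDK7 and CCDC125, MTREX and PLPP1, and KIF2A and DIMT1 overlap. RAD17 also overlaps AK6 and TAF9, TRAPPC13 overlaps SHLD3 and SGTB, and NLN overlaps SGTB. How strand was handled on the array is not given in the sources used here, so signals of overlapping genes may not be separate.

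Position along the run went with the size of the difference. From MOCS2 to CCNO the 7 members had a median of -0.55, and 2 of them, GPX8 and ARL15, did not overlap the other lines. MIR449B, a microRNA gene that lies with GPX8 inside CDC20B, stood at 0.06. From DHX29 to MARVELD2 the 27 members had a median of -1.03, 15 lay at or below -1, and 23 did not overlap (0.417% and 2.19% of all genes). In the last 8 members, from SERF1A to FCHO2, the median was -0.22, none (0) reached -1, and only SERF1A did not overlap, at -0.14. Without ORC1B14 replicate 1 the 3 medians were -0.35, -0.65 and -0.05, and 1 member lay at or below -1. These borders were set after the values were seen. MOCS2 itself stood at -0.55 and FCHO2 at -0.44. Of the 5 kept genes next to each end, PAIP1 and MRPS30 before MOCS2 stood at 0.32 and 0.32, C5orf34 at 0.20, EMB at -0.21 and ISL1 at 0.05. After FCHO2, TMEM171 stood at 0.91, FOXD1 at 0.48, BTF3 at -0.05, ARHGEF28 at 0.13 and ENC1 at 0.90. The lowest of these 10 flanking genes was EMB, above the median of each of the first 2 parts of the run. Both ORC1B14 arrays of EMB, 6.11 and 6.15, lay below the lowest of the others, 6.20. The remaining flanking genes overlapped the other lines.

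**Figure D2:**
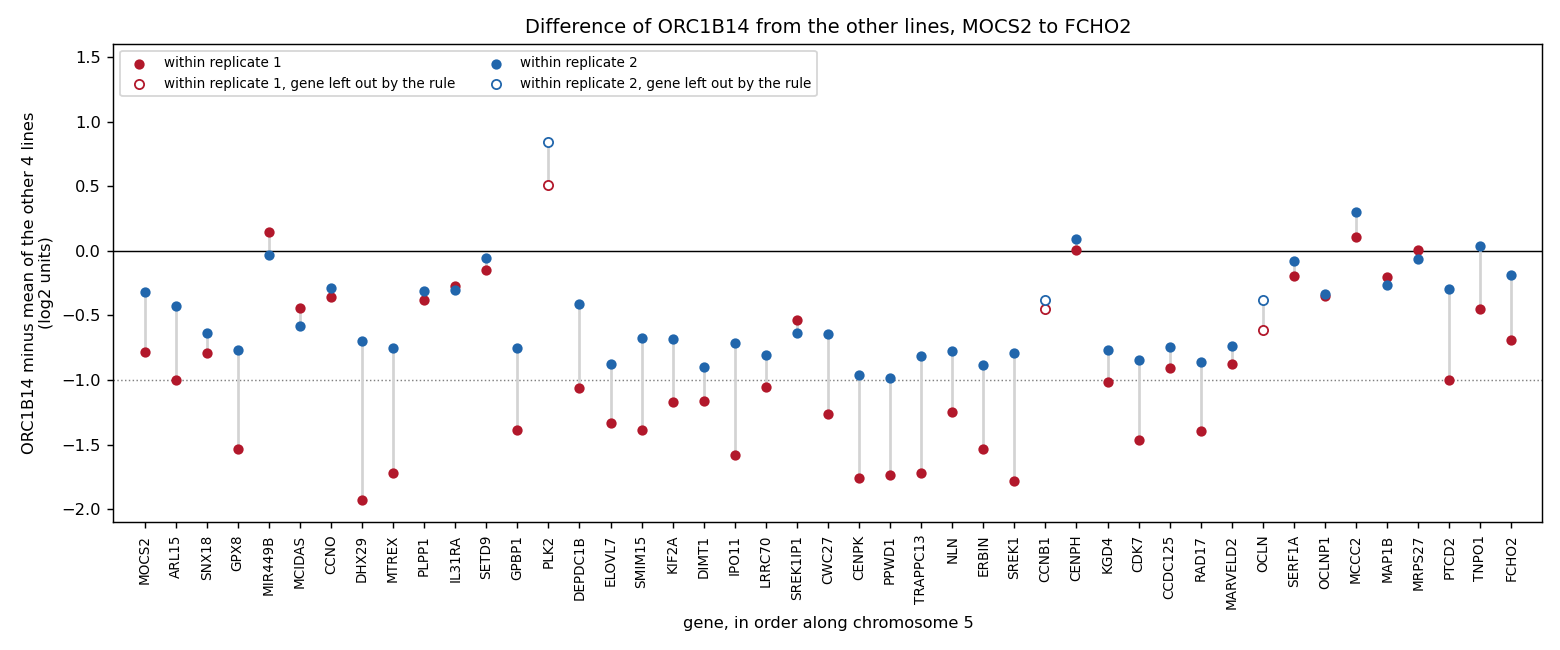
Difference of ORC1B14 from the mean of the other 4 lines (log2 units, vertical axis) for the 42 members and, as open circles, PLK2, CCNB1 and OCLN, in order along chromosome 5, within replicate 1 (red) and replicate 2 (blue); the dotted line marks -1. Points between DHX29 and MARVELD2 lie lowest, and replicate 1 is the lower of the 2 for 36 of the 42 members.

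Within the low part 4 members overlapped the other lines, and CENPH was the only member there above 0. CENPH stood at 4.64 and 5.11 in WT, 5.11 and 5.50 in ORC1B14, 4.82 and 5.12 in ORC1BP32, 5.54 and 6.01 in ORC2B2 and 5.42 and 5.37 in ORC2BP8 (probe set 16985614). Its ORC1B14 arrays lay within the range of the other lines, although the nearby members KGD4 and CDK7 were low. The other 3 were IL31RA and SETD9, which are near the array medians, and DEPDC1B. PLPP1 stood at only -0.35, yet both ORC1B14 arrays, 7.65 and 7.59, lay below the lowest of the others, 7.75. The genes that the choice of members leaves out also differ. PLK2, a stress-induced kinase, stood at 0.67, CCNB1, the mitotic cyclin B1, at -0.41, and OCLN, the tight junction protein occludin, at -0.49. With these 3 added the median over 45 genes was -0.74.

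The last part of the run holds sequences that occur more than once. SERF1A has a near-identical copy, SERF1B, and OCLNP1 is a pseudogene of OCLN, so their probe sets may read more than 1 gene. OCLNP1 stood at -0.34 and overlapped the other lines. MCCC2, which follows them, stood at 7.57 and 7.92 in WT, 7.89 and 8.27 in ORC1B14, 7.93 and 8.26 in ORC1BP32, 7.91 and 7.93 in ORC2B2 and 7.73 and 7.78 in ORC2BP8 (probe set 16985911). It was higher in ORC1B14 than in WT on both replicate numbers. The back-to-back pair MRPS27 and PTCD2 lay at -0.03 and -0.65, or 0.016 and -0.0024 without ORC1B14 replicate 1, whereas CENPK and PPWD1 lay at -1.36 each, and SREK1IP1 and CWC27 at -0.59 and -0.95. The PTCD2 arrays of ORC1B14, 5.58 and 6.87, lay on either side of the lowest of the other arrays, 6.24, so it overlaps them. Whether the difference within a pair exceeds the spread was not tested, since both values come from the contrast that chose the run.

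On the rest of chromosome 5 the medians lay near 0 or above it. The 73 kept genes before MOCS2 had a median of 0.17 in ORC1B14 against the other lines, and the 340 after FCHO2 a median of -0.02. Of these, 1 and 9 genes had both ORC1B14 arrays below the 8 others (1.37% and 2.65%, against 2.19% of all genes). Single genes after FCHO2 were as low as members, with RHOBTB3 at -1.29, the only gene of chromosome 5 outside the run at or below -1 (1 gene), and ARHGAP26 at -0.85, VCAN at -0.82, STARD4 at -0.76 and CLK4 at -0.73. These 5 were named after their values were seen. Without ORC1B14 replicate 1 RHOBTB3 stood at -0.85, ARHGAP26 at -0.87, VCAN at -0.34, STARD4 at -0.34 and CLK4 at -0.58. VCAN and STARD4 overlapped the other lines. In windows of 15 kept genes wholly outside the run the median lay between -0.24 and 0.36, and within it, with PLK2, CCNB1 and OCLN included, between -1.03 and -0.41. Windows overlap, so they are not independent. The genes before MOCS2 stood at 0.06 within replicate 1 and 0.27 within replicate 2.

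**Figure D3:**
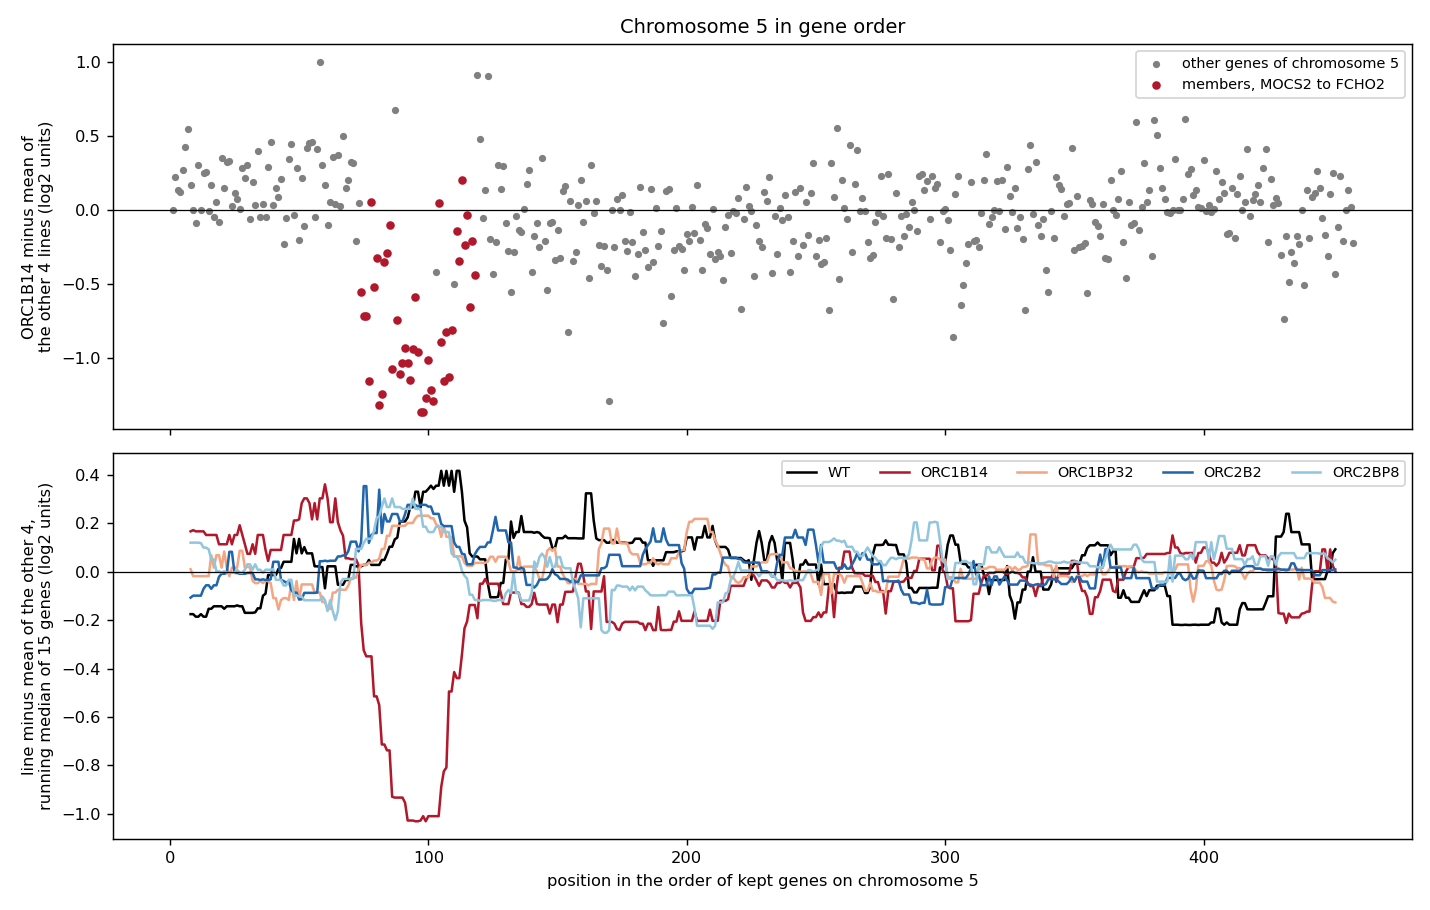
The 458 kept genes of chromosome 5 in order (horizontal axis, rank). Above, each gene's difference of ORC1B14 from the mean of the other 4 lines (log2 units), with members in red; below, the running median over 15 genes of each line minus the mean of the other 4. The ORC1B14 curve reaches -1.03 within the run and lies between -0.24 and 0.36 in windows wholly outside it. The other lines lie above 0 over most of the run, where the low ORC1B14 values enter their comparison.

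Replicates of ORC1B14 did not agree in size. The median member lay at -1.01 within replicate 1 and -0.66 within replicate 2, each against the other lines of the same replicate number, and 37 of 42 were below 0 in both (27.1% of all genes). Within replicate 1 the members reached -1.93 (DHX29), and within replicate 2 the lowest was -0.98 (PPWD1). The raw gap between the 2 ORC1B14 arrays had a median of -0.51 over the members and -0.06 over all genes. In WT that gap was -0.17, in ORC1BP32 -0.21, in ORC2B2 -0.07 and in ORC2BP8 -0.07. Without ORC1B14 replicate 2 the median difference of the members was -1.04. The direction was the same without each of the 10 arrays. The part that the wider spread of replicate 1 over all genes plays in this gap was not tested.

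Array signal went with the difference to some degree. Signal differs between probe sets for technical reasons too, so it gives no order of RNA levels between genes. Members lay between 3.94 (IL31RA) and 10.19 (MTREX) in the other lines, with a median of 7.43 against 6.30 over all genes. The 21 brighter members had a median difference of -1.03, with 16 not overlapping, and the 21 dimmer ones of -0.59, with 10 not overlapping (2.19% of all genes). Without ORC1B14 replicate 1 these medians were -0.61 and -0.35. Over the 42 members level and difference correlated at Spearman's rho -0.34 and Pearson's r -0.34, given as a description, since the members share arrays and neighbours. For gene length rho was -0.11. The filter left IL31RA in with 4 arrays and LRRC70 with 9, and left MAST4 and ZNF366 out with 1 each. The 20 genes not kept lay between 2.07 and 4.02, and their differences between -0.51 and 0.45 had a median of 0.03.

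**Figure D4:**
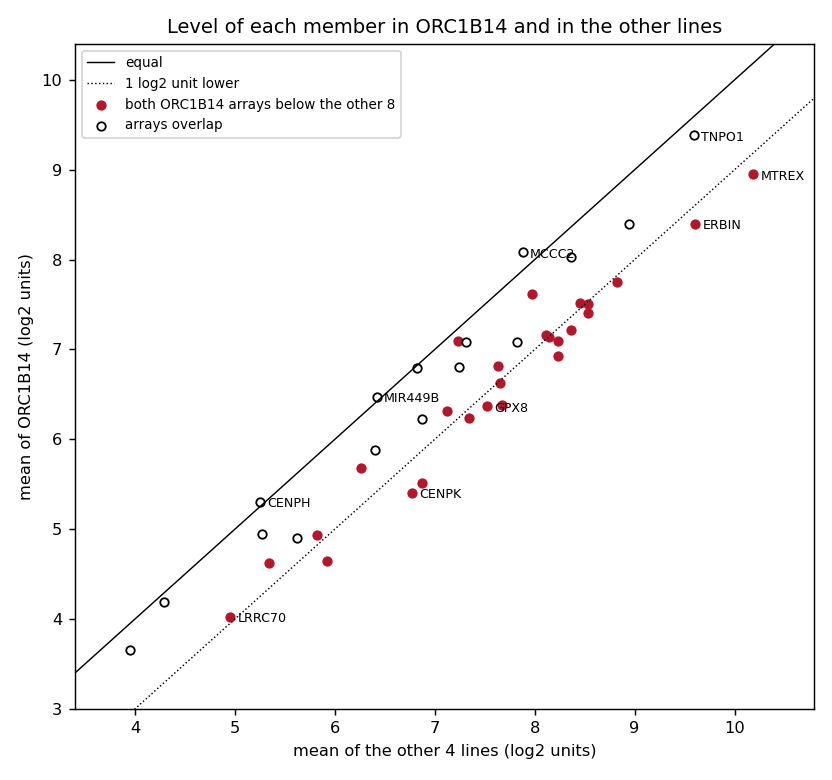
Mean of ORC1B14 (vertical axis) against the mean of the other 4 lines (horizontal axis), both in log2 units, for the 42 members; the solid line marks equal levels and the dotted line 1 log2 unit lower. The 26 filled members, whose ORC1B14 arrays lie below the 8 others, follow the dotted line over most of the range, and CENPH, MIR449B and MCCC2 lie just above the solid line.

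Over all 10797 genes, limma called 3 members lower in ORC1B14 than in the mean of the other 4 lines (ERBIN, CDK7 and RAD17), where 0.0556% of all genes (6) were called lower. Against WT alone it called 6 members lower (0.398% of all genes, 43), namely the 6 marker genes. The count of 3 comes from the contrast that chose the run, and the count of 6 shares the ORC1B14 arrays with it. Nothing is read from these counts. They also rest on few arrays. Both counts fell when any array but ORC1B14 replicate 2 was left out, and rose without that array. Each such fit leaves 1 array in a line, so nothing is read from its counts either.

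The lines other than ORC1B14 allow a test, because the differences among them did not choose the run. Their arrays were the reference of the contrast that did, and the limma estimate of the spread uses all 10 arrays. The question was whether the run also differs between WT and another mutant line. Over the members the median difference from WT was -0.02 in ORC1BP32, -0.02 in ORC2B2 and -0.02 in ORC2BP8, against 0.04, 0.03 and 0.03 over all genes. These 3 comparisons share the WT arrays. Limma called 0 members in each, where 0.0185%, 0.333% and 0.935% of all genes were called in either direction. At an unadjusted limma p under 0.05 there were 1, 3 and 2 members, against 10.1%, 11.7% and 14.6% of all genes. With the mean of these 3 lines against WT, a comparison added after the data were seen, limma again called 0 members (0.704% of all genes), with 4 at an unadjusted p under 0.05 (15.0%). A p that misses the threshold does not show that levels are equal.

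The members with the largest differences between these lines and WT lie at the end of the run and beside CCNB1. MAP1B, a microtubule-associated protein best known from neurons, stood at 7.52 and 8.40 in WT, 6.96 and 7.21 in ORC1B14, 6.58 and 6.67 in ORC1BP32, 7.24 and 7.62 in ORC2B2 and 7.29 and 7.20 in ORC2BP8 (probe set 16985950). Against WT it was at -1.33 in ORC1BP32 (SE 0.27, limma adjusted p = 0.145) and at -0.72 in ORC2BP8 (SE 0.27, limma adjusted p = 0.270). Replicate 1 minus replicate 2 of WT came to -0.88, and every array of a mutant line but ORC2B2 replicate 2 lay below both of them. FCHO2, an endocytosis protein that helps form clathrin-coated pits, stood at 7.97 and 7.62 in WT, 6.65 and 6.95 in ORC1B14, 7.38 and 7.16 in ORC1BP32, 6.73 and 7.07 in ORC2B2 and 7.28 and 6.70 in ORC2BP8 (probe set 16986033). It was at -0.90 in ORC2B2 (SE 0.25, limma adjusted p = 0.164) and at -0.81 in ORC2BP8 (SE 0.25, limma adjusted p = 0.163). All 8 mutant arrays of FCHO2 lay below both WT arrays, an order noticed after the values were seen. Limma called FCHO2 in no mutant line against WT, and these comparisons share the WT arrays. CENPH was at 0.90 in ORC2B2 against WT (SE 0.25, limma adjusted p = 0.164), and ELOVL7 at -0.54 (SE 0.23, limma adjusted p = 0.397). Across the other 4 lines 6 members had line means with an SD above 0.25, led by MAP1B at 0.55, and the median SD was 0.13.

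The partners of the marker genes lie outside the run, so their values did not choose it. The lists hold proteins that work with CDK7, RAD17, KGD4, ELOVL7, ERBIN, GPBP1, CENPK and the complex I proteins NDUFS4 and NDUFAF2, with 106 genes in all, and 40 were kept. Limma called 0 of these 40 in ORC1B14 against the mean of the other 4 lines (0.0834% of all genes in either direction, lowest adjusted p = 0.485), and 4 had an unadjusted p under 0.05 (8.52%). Against WT it also called 0 (0.583%), with 12 at an unadjusted p under 0.05 (17.0%). The median over the 40 was 0.14, with 13 below 0, and 0 had both ORC1B14 arrays below the 8 others, a count near the share of 2.19% over all genes.

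By list, CCNH, the cyclin partner of CDK7, stood at -0.34, the only TFIIH or CAK partner kept of 8 and itself on chromosome 5 after FCHO2. For RAD17, RAD1, a subunit of the checkpoint clamp that lies on chromosome 5 before MOCS2, stood at 0.45 and HUS1, another clamp subunit, at -0.28. Around KGD4, DLST, a catalytic subunit of the 2-oxoglutarate dehydrogenase complex, stood at 0.28 and DLD, its dihydrolipoamide dehydrogenase, at -0.19. Among fatty acid elongation genes ELOVL6 stood at -0.37 and ELOVL3 at 0.25. Of the ERBB receptors and polarity scaffolds EGFR stood at -0.10 and SCRIB at 0.33. GPBP1L1, the relative of GPBP1, stood at -0.11. The centromere network had 14 kept genes with a median of 0.16, from ITGB3BP, also called CENPR, at -0.31 to CENPX at 0.38, while CENPK of the same network stood at -1.36. None of these 12 named partners was called by limma. The signs of DLD, EGFR and GPBP1L1 changed when an ORC1B14 array was left out. Of the 36 complex I genes listed, 0 were named on the array.

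**Figure D5:**
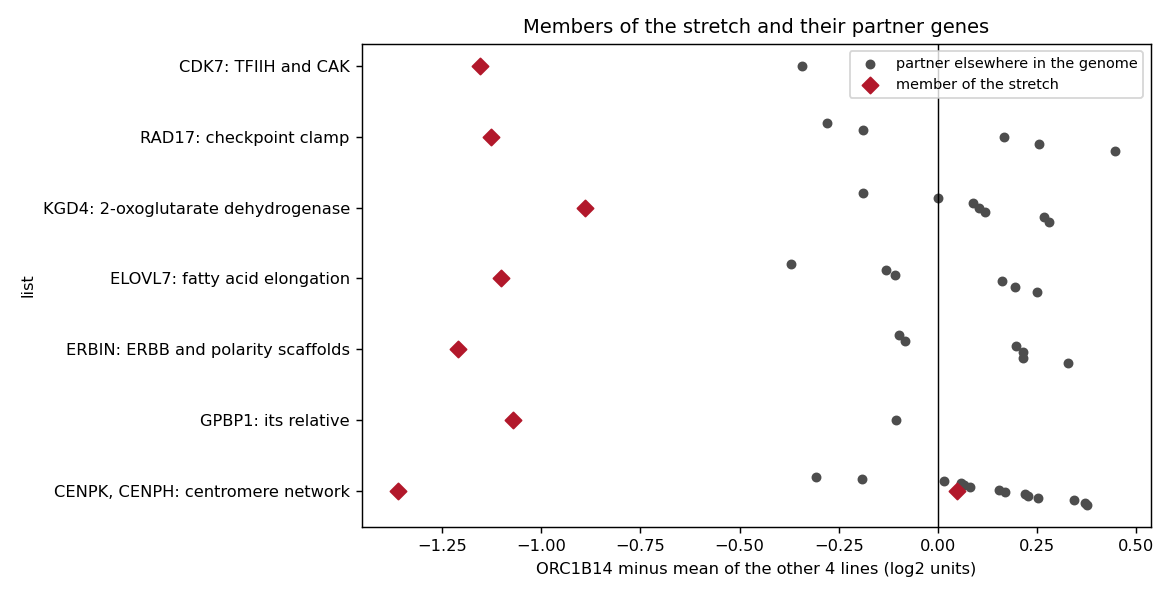
Difference of ORC1B14 from the mean of the other 4 lines (log2 units, horizontal axis) for the members CDK7, RAD17, KGD4, ELOVL7, ERBIN, GPBP1, CENPK and CENPH (red diamonds) and their 40 kept partner genes outside the run (grey points, spread vertically for display). The partners lie between -0.37 and 0.45, and all of these members but CENPH lie at -0.89 or below.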

How the data were processed

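Values per probe set (53617) for the 10 arrays are on a log2 scale as the authors deposited them. Affymetrix Expression Console, without a version, is listed in the submitters' processing notes. How arrays were normalized, and with which annotation or build, is not given in the sources used here; the log base was read from the range (1.45 to 13.71). No further scaling was applied. Of the probe sets, 16098 carried a single gene symbol and 37519 no name; gene order and promoters came from RefSeq (GRCh38.p14), joined by gene ID. Probe sets at or above the array median on 2 or more arrays were kept, the brightest for each gene. Of all pairs of arrays, 0 held identical values.

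All 10 arrays were fitted together in R 4.3.3 with limma 3.58.1 (5 line means, eBayes with an intensity trend, 5 residual and 5.83 prior degrees of freedom), and p-values were adjusted by Benjamini-Hochberg over all genes, two-sided, threshold 0.05. The fit was tested on simulated data. Replicate number was not used as a block. Members, lists and roles were chosen with earlier results of these data known. Named are the 6 markers, the 12 lowest and 6 highest members, the lowest and highest of each list, called members, the flanking genes, those left out and those at the edge of the filter, and members counted within their role; MAP1B, FCHO2, PLPP1, DEPDC1B and the back-to-back pairs were added after their values were seen. Alternatives were quantile normalization, centring, other filters, probe set means, a replicate block, no trend and each array left out.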

Additional observations from a re-analysis of the deposited data

How the results depend on the processing

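The median difference of the members in ORC1B14 kept its sign under every alternative run and lay between -1.04 and -0.52 when each array was left out in turn. Leaving out arrays moved the members called between 0 and 14 against the other 4 lines, and between 0 and 15 against WT. Each such fit leaves 1 array in a line, and no share over all genes is given, so nothing is read from its counts. Against the other 4 lines limma called 6 members after quantile normalization (0.167% of all genes called). It called 1 there after centring each array on its median (0.0648%) and 1 without the filter on dim probe sets (0.0470%). Against WT it called 2 after centring (0.296%) and 3 without the filter (0.181%). With the replicate number as a block it called 21 members against the other 4 lines (0.667% of all genes) and 26 against WT (4.59%). In that fit it called 1 member in ORC1BP32 against WT (MAP1B, 0.528%) and 1 in ORC2B2 against WT (CENPH, 2.32%). For the mean of the 3 lines against WT it also called 1 member. The share over all genes is not given for that comparison, so nothing is read from its count. Deviations of same-numbered arrays correlated above 0 in 10 of 10 pairs of lines (0.08 to 0.57) and above 0.1 in 9, a hint of a shared replicate effect; the labels do not say what a number shares, and the pairing was to be adopted only with every pair above 0.1. In ORC1BP32, ORC2B2 and ORC2BP8 against WT, and among the partner genes, limma called 0 under each of the other alternatives. Of the 42 members, 5 changed sign when an array was left out: MRPS27 (-0.080 to 0.020), MIR449B (-0.017 to 0.13), SETD9 (-0.26 to 0.059), CENPH (-0.15 to 0.24) and TNPO1 (-0.44 to 0.031). Flanking genes that did so were C5orf34 (-0.19 to 0.60), PAIP1 (-0.023 to 0.67), ISL1 (-0.049 to 0.15), BTF3 (-0.15 to 0.052) and ENC1 (-0.0054 to 1.81), and partners were DLD (-0.67 to 0.29), EGFR (-0.34 to 0.14) and GPBP1L1 (-0.25 to 0.042); MRPS27 also stood at 0.0023 after quantile normalization. The cause of these changes was not tested. The number of arrays limits the precision throughout.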
